A study of Homo sapiens with 6 samples.

Results

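The mitosis and G2/M genes examined here are 60 genes whose proteins drive cells from G2 phase through mitosis and cytokinesis. They were chosen by gene symbol, leaving out genes with kinesin or tubulin symbols, and all 60 were found among the 60623 genes of the count table. Their RNA was measured by RNA-Seq in TC28a2 cells, an immortalized human chondrocyte line, treated for 24 hours with mocetinostat at 2 μM or with DMSO, the solvent, alone. Mocetinostat inhibits class I histone deacetylases, the enzymes that remove acetyl groups from histones and other proteins. Each condition had 3 samples, which the study describes as independent experiments of this single line. Of 10 chondrocyte markers, 5 were under 1 CPM (the count scaled to the library size, TMM-normalized) on average with DMSO. Among these, *CNMD* had 0 counts in all 6 samples. With DMSO, *ACAN*, *COL11A2*, *MATN3*, and *COL2A1* averaged 4.72, 3.85, 3.42, and 2.2 CPM. The remaining marker, *SOX9*, the master transcription factor of chondrocytes, was at 106 CPM.

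In G2 phase, cyclins A and B gather and bind the kinase CDK1, which is held inactive by WEE1 and PKMYT1 until CDC25 phosphatases release it. CDK1, the Polo kinase PLK1 and the Aurora kinases then drive spindle assembly and chromosome condensation. The spindle checkpoint blocks the anaphase-promoting complex (APC/C) until every kinetochore is attached, after which the complex triggers the destruction of securin and the cyclins. Transcription of most of these genes peaks in G2/M through the MuvB complex, which binds a promoter element called the CHR, working with MYBL2 and FOXM1 in cycling cells and with repressive E2F and RB-family proteins in the DREAM complex of resting cells. The factor NF-Y binds CCAAT boxes upstream of the CHR.

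Promoters of 6 members are shown because these elements are best seen in sequence, and because the RNA of the 6 genes ranges from a strong decrease to no detectable change. Each is 300 bases from RefSeq (GRCh38.p14), from 250 bases before the start of transcription to 50 after it, 5′ to 3′ on the strand of the gene. Capitals mark the letters searched for: the CHR (TTTGAA or TTCGAA) and CCAAT, each on either strand, so that CCAAT on the other strand reads ATTGG. In the *CDCA8* promoter the CHR and an ATTGG overlap and form 1 run of capitals.
PLK1 (chr16:23678639-23678938, plus strand): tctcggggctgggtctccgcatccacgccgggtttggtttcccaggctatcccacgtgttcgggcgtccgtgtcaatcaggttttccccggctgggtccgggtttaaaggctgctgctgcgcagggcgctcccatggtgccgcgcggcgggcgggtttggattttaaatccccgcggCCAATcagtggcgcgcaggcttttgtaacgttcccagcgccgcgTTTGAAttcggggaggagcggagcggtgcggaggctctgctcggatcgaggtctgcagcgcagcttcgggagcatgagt
CDCA8 (chr1:37692266-37692565, plus strand): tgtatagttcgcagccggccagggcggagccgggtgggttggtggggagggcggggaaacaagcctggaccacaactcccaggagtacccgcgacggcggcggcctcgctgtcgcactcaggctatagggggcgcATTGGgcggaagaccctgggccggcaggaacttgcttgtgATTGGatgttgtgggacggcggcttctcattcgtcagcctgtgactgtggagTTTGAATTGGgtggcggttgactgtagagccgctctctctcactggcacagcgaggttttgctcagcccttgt
CCNB2 (chr15:59104896-59105195, plus strand): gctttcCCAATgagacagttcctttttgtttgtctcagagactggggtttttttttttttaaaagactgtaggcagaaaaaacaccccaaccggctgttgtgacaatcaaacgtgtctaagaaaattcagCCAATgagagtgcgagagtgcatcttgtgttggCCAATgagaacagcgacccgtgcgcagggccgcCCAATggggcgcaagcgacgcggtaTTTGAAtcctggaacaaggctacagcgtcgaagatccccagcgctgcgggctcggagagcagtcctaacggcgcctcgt
CCNB1 (chr5:69166900-69167199, plus strand): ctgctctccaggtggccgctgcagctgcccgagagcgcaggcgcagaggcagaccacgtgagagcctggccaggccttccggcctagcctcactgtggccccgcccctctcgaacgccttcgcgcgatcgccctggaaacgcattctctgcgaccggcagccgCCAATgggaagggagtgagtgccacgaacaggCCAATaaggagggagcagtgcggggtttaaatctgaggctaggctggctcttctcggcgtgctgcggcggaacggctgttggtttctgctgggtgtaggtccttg
CDK1 (chr10:60778081-60778380, plus strand): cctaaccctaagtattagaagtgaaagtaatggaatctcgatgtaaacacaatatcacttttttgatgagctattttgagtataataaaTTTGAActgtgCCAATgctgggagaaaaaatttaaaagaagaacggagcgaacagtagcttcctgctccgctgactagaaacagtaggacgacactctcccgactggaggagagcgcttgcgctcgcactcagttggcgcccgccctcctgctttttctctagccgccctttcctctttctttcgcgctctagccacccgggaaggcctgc
MYBL2 (chr20:43666864-43667163, plus strand): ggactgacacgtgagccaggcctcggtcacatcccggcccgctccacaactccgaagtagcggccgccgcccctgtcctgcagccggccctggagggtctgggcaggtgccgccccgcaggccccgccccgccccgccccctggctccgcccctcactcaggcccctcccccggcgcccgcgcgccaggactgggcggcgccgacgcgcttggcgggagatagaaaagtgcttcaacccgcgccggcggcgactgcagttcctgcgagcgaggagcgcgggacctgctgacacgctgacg

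In *PLK1* the CHR began 29 bases before the start of transcription and a CCAAT box 73 bases before it. *CDCA8* had a CHR at -23 and CCAAT letters at -115, -75, and -18. *CCNB2* had a CHR at -29 below a row of CCAAT boxes at -244, -120, -87, and -54. *CCNB1* had CCAAT boxes at -87 and -55 and no CHR letters in this window. In *CDK1* the CHR letters lay farther upstream of the start used, at -161, with CCAAT at -150. Whether these are the elements in use, or others lie outside the window, was not examined. The *MYBL2* window held neither.

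RefSeq promoters were matched by symbol for 49 of the 60 members, and 36 of these (73.5%) held CHR letters, compared with 10.9% of the 10361 tested genes that have a promoter in the table and with 16.6% of all 27305 promoters. Within the 50 bases on either side of the start the CHR was present in 57.1% of the members and 3.03% of tested genes. CCAAT was present in 65.3% of the members against 36.9% of tested genes, and at least 2 CCAAT boxes were present in 49% against 13.8%. The E2F letters GGCGGGAA, searched on both strands, were present in 4 of the 49 (8.16%) against 5.17% of tested genes. The plot of promoter elements sets these shares side by side. A match is a description of the letters and no evidence of binding. Their absence from a window does not show that the gene lacks the element.

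**Figure D1:**
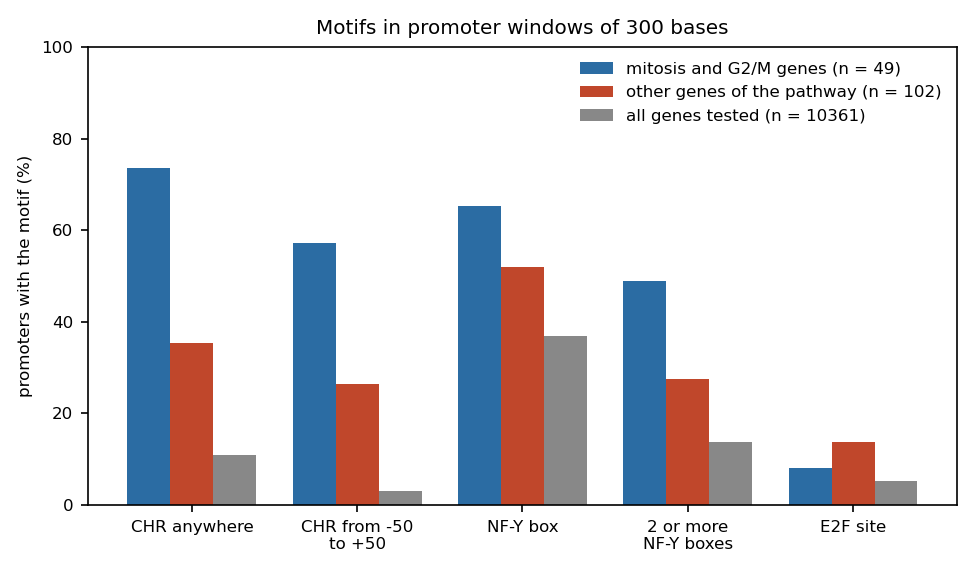
Share of promoters (%, vertical axis from 0, bars) that hold CHR letters, CHR letters within 50 bases of the start, CCAAT (the NF-Y box), at least 2 CCAAT boxes, or E2F letters, for the members, the other genes of the pathway, and all tested genes. CHR letters were in 73.5% of member promoters and in 10.9% of those of all tested genes.

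Total counts ranged from 4873426 to 11031132 in the DMSO-treated samples and from 1619344 to 5089542 in the mocetinostat-treated samples, so that low counts carry more error in the treated samples. The biological coefficient of variation, the spread between replicates beyond counting error, was 9.30% over all genes. The members together held 1.37%, 1.31%, and 1.29% of all counts in the DMSO-treated samples. In the mocetinostat-treated samples they held 0.661%, 0.645%, and 0.658%. These shares use the totals alone, and the conditions did not overlap. In bulk RNA, fewer cells in G2/M and less RNA of these genes in each cell cannot be told apart.

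After mocetinostat treatment the RNA of nearly all of the members was lower. Of the 59 tested, 57 were lower at an adjusted p under 0.05, and 34 of them also passed a log2 fold change of -1 and were called downregulated genes (DRGs), which is 57.6% of those tested. Over all 13966 genes tested, 8.18% were DRGs and 31.4% were lower at any fold. No member was called an upregulated gene (URG) or was higher at an adjusted p under 0.05, whereas 20.2% of all genes were URGs and 32.9% were higher at any fold. The median log2 fold change was -1.08 for the members and -0.0021 for all genes tested. It was -0.19 for the 7833 genes with at least the expression of the lowest members (the 5th percentile of their mean log CPM), 9.66% of which were DRGs. All 3 mocetinostat-treated samples were below all 3 DMSO-treated samples for 56 members, as for 32.8% of all genes. The exceptions were *CDK1*, *MYBL2*, and *PRC1*.

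Each sample carried the decrease. The median log2 ratio of the members to their mean with DMSO was -1.08, -1.11, and -1.10 in mocetinostat replicates 1, 2, and 3. With each sample left out in turn, 34 to 40 members were called DRGs. The scaling of the libraries mattered more. *GAPDH*, a glycolytic enzyme often used as a reference, was itself lower after treatment (log2 fold change -0.53, adjusted p = 2.58e-12), and scaling each library to its *GAPDH* count raised the log2 fold change of the median gene by 0.54. On that scale 13 members were DRGs, their median was -0.54, and *CDK1*, *CDC25B*, *WEE1*, *FZR1*, and *ANLN* turned from lower to higher, with *CDC25B* and *MYBL2* passing an adjusted p of 0.05 as higher. All values below are on the TMM scale. Counts by role or list below are to be read against all genes tested, of which 31.4% were lower and 8.18% were DRGs.

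**Figure D2:**
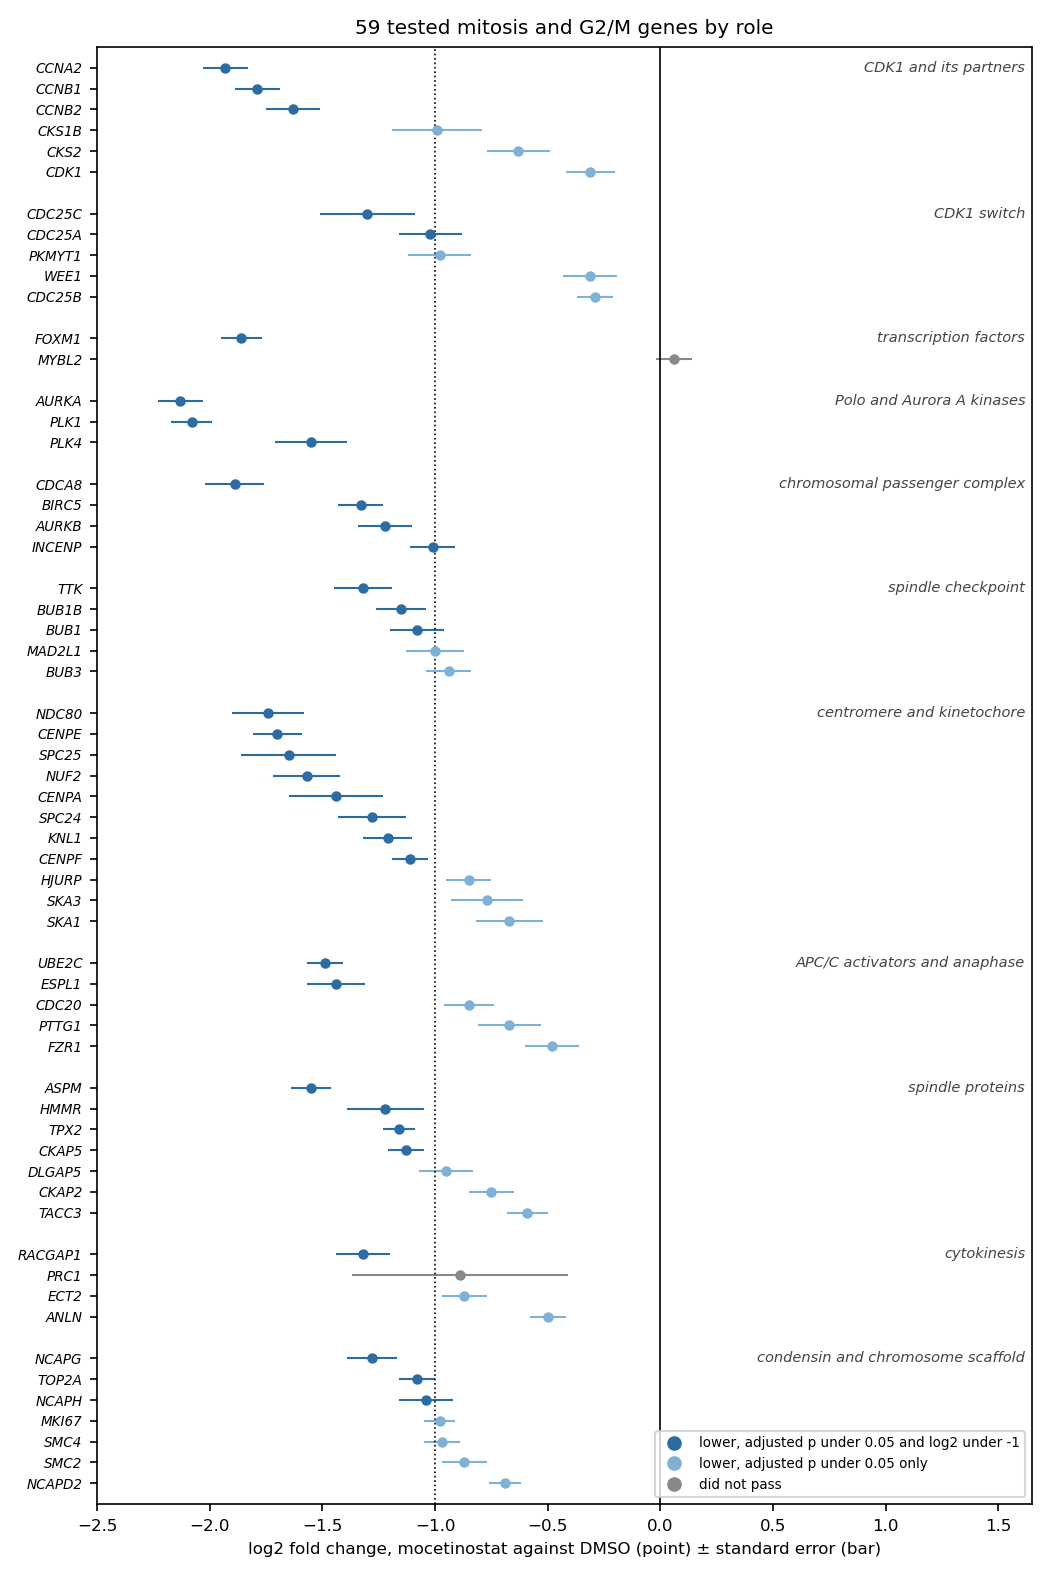
Log2 fold change (mocetinostat against DMSO, TMM scale) of each tested member with its standard error, ordered within groups by role, with lines at 0 and at -1. Values lie between -2.13 (*AURKA*) and 0.06 (*MYBL2*), and 34 of 59 members were called DRGs. Under *GAPDH* scaling *CDK1*, *CDC25B*, *WEE1*, *FZR1*, and *ANLN* turn to higher.

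**Figure D3:**
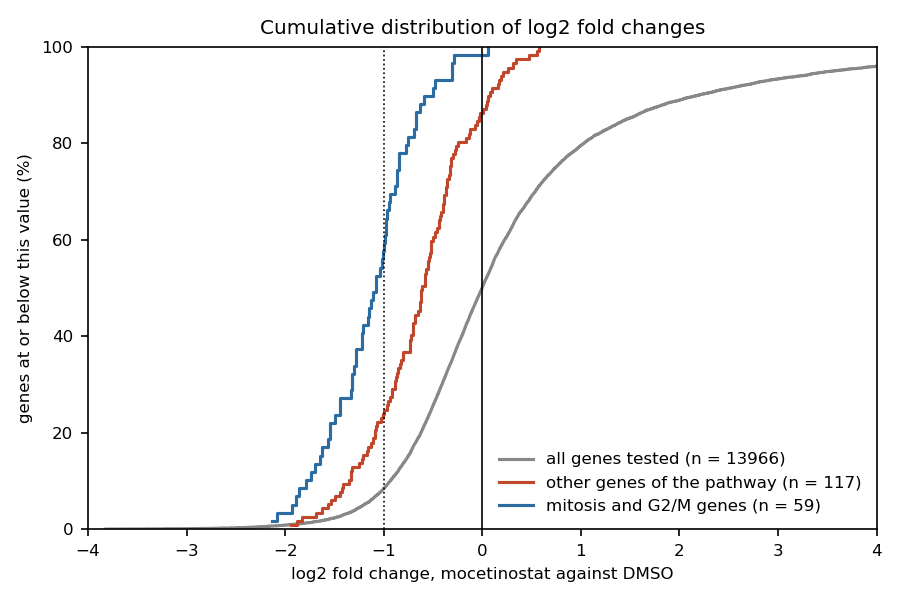
Cumulative share of genes (%) by log2 fold change (mocetinostat against DMSO, TMM scale) for the members, the other genes of the pathway, and all genes tested. The medians are -1.08, -0.61, and -0.0021.

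Among *CDK1* and its partners, the cyclins fell more than the kinase. *CCNA2*, encoding cyclin A (chr4:121816444-121823883), was at 216, 197, and 210.0 CPM with DMSO and at 56.9, 53.9, and 51.8 CPM with mocetinostat. The highest treated sample was thus far below the lowest control, a log2 fold change of -1.93 (SE 0.10, adjusted p = 7.43e-27), or 3.81-fold lower. *CCNB1*, encoding cyclin B1 (chr5:69167135-69178245), was at 282, 231, and 239 CPM with DMSO and at 73.9, 72.5, and 70.9 CPM with mocetinostat. The conditions were far apart, with a log2 fold change of -1.79 (SE 0.10, adjusted p = 3.14e-26). *CCNB2*, encoding cyclin B2, changed by -1.63 on the log2 scale. *CDK1* itself (chr10:60778331-60794852) was at 142, 128, and 102 CPM with DMSO and at 90.8, 101, and 111 CPM with mocetinostat. These ranges overlapped, since mocetinostat replicate 3 was above DMSO replicate 3, and the log2 fold change was -0.31 (SE 0.11, adjusted p = 0.00949), which became 0.22 under *GAPDH* scaling. The decrease no longer passed without DMSO replicate 1 (-0.22, adjusted p = 0.0566), without mocetinostat replicate 1 (-0.24, adjusted p = 0.123), with at least 10 counts in every sample (adjusted p = 0.0572), or in libraries thinned to the smallest total (-0.13, adjusted p = 0.389). The small CDK-binding proteins *CKS1B* and *CKS2* were lower by less than the fold required for a DRG, with log2 fold changes of -0.99 and -0.63.

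In the switch that controls CDK1, all 5 members were lower and 2 were DRGs. *CDC25C*, a phosphatase that activates CDK1 at the entry to mitosis (chr5:138285269-138338355), was at 31.4, 22.1, and 30.5 CPM with DMSO and at 12.7, 8.06, and 12 CPM with mocetinostat. The conditions did not overlap, and the log2 fold change was -1.30 (SE 0.21, adjusted p = 8.71e-08), from as few as 13 counts in mocetinostat replicate 2. *CDC25A*, which also acts at the start of S phase, was just past the threshold at -1.02. *CDC25B* (chr20:3786772-3806121), the phosphatase that acts earliest in G2, was at 335, 366, and 378 CPM with DMSO and at 292, 319, and 272 CPM with mocetinostat. There was again no overlap, with a log2 fold change of -0.29 (SE 0.08, adjusted p = 0.0011) and it turned to 0.24 under *GAPDH* scaling. Of the opposing kinases, *PKMYT1* was lower by 0.98 on the log2 scale and *WEE1* by 0.31, the latter turning to 0.23 under *GAPDH* scaling.

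The pair of transcription factors diverged. *FOXM1*, which activates late G2/M genes (chr12:2857680-2877174), was at 408, 439, and 409 CPM with DMSO and at 123, 114, and 107 CPM with mocetinostat, a log2 fold change of -1.86 (SE 0.09, adjusted p = 1.58e-30). *MYBL2*, which joins MuvB in S phase (chr20:43667019-43716495), was at 428, 466, and 501 CPM with DMSO and at 489, 532, and 439 CPM with mocetinostat. The conditions overlapped, and its log2 fold change of 0.06 (SE 0.08) did not pass (adjusted p = 0.472). Per kilobase of exon, *MYBL2* stood, with DMSO, at 167 CPM per kb, behind *UBE2C* at 415 and *TPX2* at 209. With mocetinostat it was first at 175 CPM per kb, followed by *UBE2C* at 149 and *TPX2* at 93. *NUSAP1* and *PRC1* had the fewest counts for their length with DMSO, at 0.121 and 0.806 CPM per kb. They share 81.4% and 57.6% of their exon bases with same-strand genes, so these values cannot be read as levels. The next lowest with DMSO were *WEE1* and *CDC25C* at 7.79 and 8.41.

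**Figure D4:**
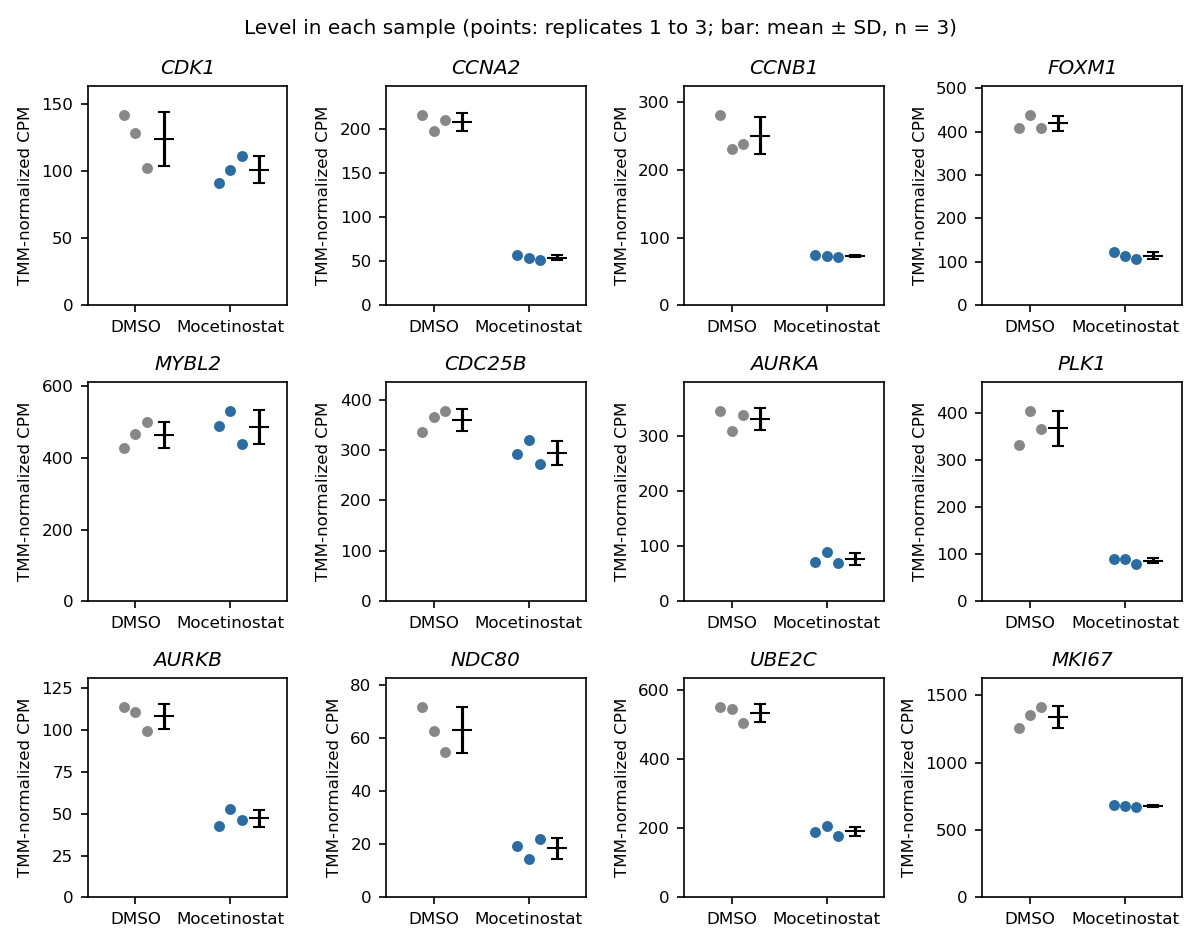
Expression (CPM, each vertical axis starting at 0) of selected members in each of the 3 DMSO-treated and 3 mocetinostat-treated samples, with the mean and SD of each condition. The conditions are apart in the members called DRGs and overlap in *CDK1* and *MYBL2*.

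All 3 Polo and Aurora A kinases were DRGs, and *AURKA* and *PLK1* had the lowest log2 fold changes of the 59 members tested. *AURKA*, the centrosomal Aurora kinase (chr20:56369389-56392337), was at 346, 309, and 338 CPM with DMSO and at 72.2, 89.2, and 68.8 CPM with mocetinostat. That is 4.39-fold lower, a log2 fold change of -2.13 (SE 0.10, adjusted p = 3.25e-31), and it ranked 89 from the lowest of all genes tested. *PLK1* (chr16:23677656-23690367), the kinase that acts from mitotic entry to cytokinesis, was at 332, 406, and 367 CPM with DMSO and at 90.6, 90.5, and 80.0 CPM with mocetinostat. The log2 fold change was -2.08 (SE 0.09, adjusted p = 2.39e-31). *PLK4*, which starts centriole duplication (chr4:127880893-127899224), was at 64, 56, and 59.2 CPM with DMSO and at 21, 13, and 25.3 CPM with mocetinostat, a log2 fold change of -1.55 (SE 0.16, adjusted p = 4.98e-14). Under *GAPDH* scaling these 3 kinases were still lower by more than 1 on the log2 scale, at -1.60, -1.54, and -1.01.

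The chromosomal passenger complex, which corrects faulty attachments of chromosomes to the spindle, was made up of 4 DRGs of 4. Its targeting subunit *CDCA8* (borealin, chr1:37692481-37709719) was at 103, 98.9, and 95.6 CPM with DMSO and at 29.7, 24.8, and 23.6 CPM with mocetinostat, a log2 fold change of -1.89 (SE 0.13, adjusted p = 8.64e-21). The kinase subunit *AURKB* (chr17:8204733-8210600) was at 114, 111, and 99.5 CPM with DMSO and at 42.6, 52.7, and 46.4 CPM with mocetinostat, a log2 fold change of -1.22 (SE 0.12, adjusted p = 2.75e-14). *BIRC5* (survivin) changed by -1.33. The scaffold *INCENP* (chr11:62123998-62153169), at 181, 225, and 246 CPM against 115, 97.9, and 105 CPM, had a log2 fold change of -1.01 (SE 0.10, adjusted p = 2.20e-14). It was so close to the threshold that it lost the call, though not its direction, under several alternatives, among them RLE size factors (-0.99) and leaving out DMSO replicate 3 (-0.93).

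All 5 spindle checkpoint members were lower and 3 were DRGs. *TTK*, the kinase that starts the checkpoint signal (chr6:80003887-80042527), was at 95.4, 88.1, and 77.1 CPM with DMSO and at 33.9, 35.9, and 35.6 CPM with mocetinostat, a log2 fold change of -1.32 (SE 0.13, adjusted p = 3.70e-14). *BUB1* and *BUB1B*, which gather the checkpoint proteins at kinetochores, changed by -1.08 and -1.15. *BUB3*, their shared binding partner (chr10:123154402-123170467), was at 211, 178, and 156 CPM with DMSO and at 102, 86.8, and 92.4 CPM with mocetinostat. With a log2 fold change of -0.94 (SE 0.10, adjusted p = 1.09e-12) it did not reach the fold of a DRG, and *MAD2L1*, which blocks CDC20, missed that fold narrowly.

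The centromere and kinetochore group had the most DRGs, 8 of 11, and a median log2 fold change of -1.28. The 4 subunits of the NDC80 complex, which grips the ends of microtubules, were all DRGs. *NDC80* (chr18:2571557-2616635) was at 71.9, 62.7, and 54.8 CPM with DMSO and at 19.2, 14.3, and 22 CPM with mocetinostat, a log2 fold change of -1.74 (SE 0.16, adjusted p = 4.05e-16). Those of *NUF2*, *SPC24*, and *SPC25* were -1.57, -1.28, and -1.65, the last from as few as 8 counts in mocetinostat replicate 2 and moving between -2.14 and -1.49 when samples were left out. The other DRGs were *CENPE*, a microtubule motor (-1.70), *CENPA*, the centromeric histone (-1.44), *KNL1* (-1.21), and *CENPF* (-1.11). *SKA1*, a subunit of the complex that couples kinetochores to microtubules (chr18:50375040-50394168), was at 56, 40.6, and 40.8 CPM with DMSO and at 28.9, 24.8, and 32.7 CPM with mocetinostat. The log2 fold change was -0.67 (SE 0.15, adjusted p = 1.15e-04), while *SKA3* and *HJURP*, the chaperone of CENPA, were at -0.77 and -0.85.

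Around the APC/C, all 5 members were lower and 2 were DRGs. *UBE2C*, the ubiquitin-conjugating enzyme of the APC/C (chr20:45812576-45816957), was at 552, 545, and 504 CPM with DMSO and at 189, 206, and 179 CPM with mocetinostat, a log2 fold change of -1.49 (SE 0.08, adjusted p = 7.27e-27). *ESPL1*, the protease that cuts cohesin at anaphase, changed by -1.44, and its inhibitor securin, *PTTG1*, by -0.67. The mitotic activator *CDC20* changed by -0.85. The activator of late mitosis and G1, *FZR1* (chr19:3506311-3538334), was at 76.3, 84.5, and 78.1 CPM with DMSO and at 50.2, 66.3, and 58.8 CPM with mocetinostat. A log2 fold change of -0.48 (SE 0.12, adjusted p = 5.55e-04) became 0.06 under *GAPDH* scaling.

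Of the spindle proteins, all 7 tested were lower and 4 were DRGs. *ASPM*, which acts at spindle poles (chr1:197084121-197146694), was at 331, 288, and 282 CPM with DMSO and at 109, 94.2, and 103 CPM with mocetinostat, a log2 fold change of -1.55 (SE 0.09, adjusted p = 1.70e-24). *TPX2*, the activator of Aurora A, changed by -1.16, *HMMR* by -1.22, and *CKAP5* by -1.13. *TACC3* (chr4:1712858-1745171), which bridges microtubules with CKAP5, was at 191, 221, and 249 CPM with DMSO and at 148, 147, and 144 CPM with mocetinostat, a log2 fold change of -0.59 (SE 0.09, adjusted p = 1.00e-07). *NUSAP1* was not tested, having 5, 2, and 3 counts in the controls and 7, 0, and 0 in the treated samples. In GENCODE 44, 81.4% of its exon bases are shared with a same-strand gene that had 0 counts, so that its count cannot be read as its level.

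In the cytokinesis group 3 of 4 members were lower and 1 was a DRG. *RACGAP1*, a subunit of the centralspindlin complex (chr12:49976923-50033136), was at 137, 117, and 113 CPM with DMSO and at 47.6, 49, and 52.2 CPM with mocetinostat, a log2 fold change of -1.32 (SE 0.12, adjusted p = 3.64e-16). *ECT2*, the exchange factor that it recruits, changed by -0.87. *ANLN*, the scaffold of the contractile ring (chr7:36389821-36453791), was at 557, 475, and 479 CPM with DMSO and at 361, 328, and 381 CPM with mocetinostat. Its log2 fold change of -0.50 (SE 0.08, adjusted p = 6.98e-08) became 0.04 under *GAPDH* scaling. *PRC1*, which bundles the microtubules of the central spindle, had 51, 25, and 24 counts in the controls and 6, 9, and 5 in the treated samples, and did not pass (log2 fold change -0.89, SE 0.48, adjusted p = 0.0985). The value moved between -1.57 and -0.32 when samples were left out. *PRC1* shares 57.6% of its exon bases with a same-strand gene that had 270 counts, and 34.3% with a gene on the opposite strand. Its count therefore cannot be read as its level.

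All 7 condensin and chromosome scaffold members were lower and 3 were DRGs. *NCAPG*, a condensin I subunit (chr4:17810979-17844865), was at 159, 162, and 149 CPM with DMSO and at 69.4, 55.8, and 65.1 CPM with mocetinostat, a log2 fold change of -1.28 (SE 0.11, adjusted p = 2.04e-17). Its partner *NCAPD2* (chr12:6493356-6531955) was at 532, 547, and 561 CPM with DMSO and at 347, 332, and 337 CPM with mocetinostat, a log2 fold change of -0.69 (SE 0.07, adjusted p = 7.10e-13). *TOP2A*, the topoisomerase that untangles chromosomes (chr17:40388525-40417896), was at 936, 809, and 794 CPM with DMSO and at 425, 338, and 435 CPM with mocetinostat. No samples overlapped, and the log2 fold change was -1.08 (SE 0.08, adjusted p = 1.88e-20). The DRG call, though not the direction, was lost under *GAPDH* scaling (-0.54) and with glmTreat (adjusted p = 0.258). It was also lost, at -1.0, without mocetinostat replicate 2, under the filter of 10 counts in every sample, and in thinned libraries. *MKI67*, the coat protein of mitotic chromosomes and a common marker of proliferation (chr10:128096659-128126423), was at 1256, 1351, and 1416 CPM with DMSO and at 686, 682, and 674 CPM with mocetinostat. The log2 fold change of -0.98 (SE 0.07, adjusted p = 1.74e-21) fell just short of the DRG threshold. *MKI67* became a DRG with DESeq2 (-1.01) and without the filter (-1.23). The call was also gained without DMSO replicate 1 (-1.04), DMSO replicate 2 (-1.01), or mocetinostat replicate 2. In the other alternatives *MKI67* stayed uncalled, at -0.45 under *GAPDH* scaling.

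Ratios within a sample do not depend on how libraries are scaled, and 12 pairs of related members were compared in this way. In 8 of them the conditions did not overlap. Of all single genes tested, 32.8% were lower and 33.7% were higher without overlap. The share among pairs of genes at large was not computed. With 3 samples against 3 the exact two-sided permutation test cannot give a p under 0.1, and each of the 8 pairs had that p (0.15 adjusted over the 12), so none reached 0.05. The log2 ratio of *FOXM1* to *MYBL2* was -0.07, -0.09, and -0.29 with DMSO and -1.99, -2.22, and -2.04 with mocetinostat, a difference of -1.94. That of *CDC25B* to *CDC25C* was 3.41, 4.05, and 3.63 with DMSO and 4.52, 5.31, and 4.5 with mocetinostat, a difference of 1.08. That of *AURKA* to *AURKB* was 1.61, 1.48, and 1.76 with DMSO and 0.76, 0.76, and 0.57 with mocetinostat, a difference of -0.92. Smaller shifts without overlap were found for *CDC25A* to *CDC25B* (-0.73), *WEE1* to *PKMYT1* (0.68), *CKS1B* to *CKS2* (-0.41), *CDC20* to *FZR1* (-0.41), and *CCNB1* to *CCNB2* (-0.17). The ratios *CCNB1* to *CCNA2*, *CDC25A* to *CDC25C*, *PLK1* to *PLK4*, and *BUB1* to *BUB1B* overlapped between conditions, with exact permutation p of 0.2, 0.4, 0.3, and 0.9.

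**Figure D5:**
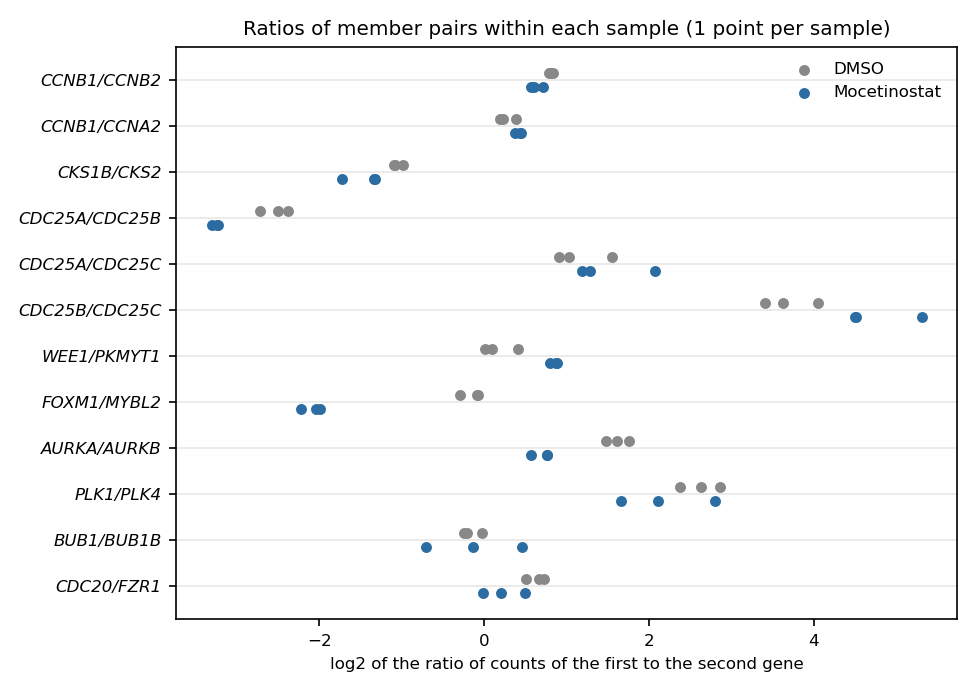
Log2 ratio (horizontal axis) of the counts of 2 members within each sample, for 12 pairs, for 3 DMSO-treated and 3 mocetinostat-treated samples. The ratio of *FOXM1* to *MYBL2* differs most between conditions, by -1.94, and that of *BUB1* to *BUB1B* overlaps.

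A further 118 genes of the pathway were taken in 10 lists by function. Of 117 tested, 90 were lower (76.9%) and 28 of these were DRGs (23.9%), against 31.4% and 8.18% of all genes tested. There were 3 higher with none a URG, against 32.9% and 20.2% of all genes. A further 24 did not pass, and the median log2 fold change was -0.61. Other G2/M genes held the most DRGs, 9 of 19, among them *SPAG5*, a spindle and kinetochore protein at 205, 199.9, and 196 CPM with DMSO and 51.5, 53.3, and 52.6 CPM with mocetinostat (log2 fold change -1.94, SE 0.11, adjusted p = 8.47e-27). *CEP55*, which recruits the machinery of abscission, had a log2 fold change of -0.07 (adjusted p = 0.528). All 13 cohesin genes were lower and 4 were DRGs, from *STAG2* at -1.49 (adjusted p = 2.41e-22) to *SMC3* at -0.36 (adjusted p = 7.66e-04), the latter at 0.18 under *GAPDH* scaling. All 3 condensin II genes were lower, between -0.68 (*NCAPG2*) and -0.58 (*NCAPD3*), with no DRG.

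Of the 16 outer kinetochore and Mis18 genes 13 were lower and 5 were DRGs. *PMF1* was lowest at -1.63 (SE 0.39), from 11, 4, and 8 counts in the treated samples. *MAD1L1* was highest at 0.47 (adjusted p = 0.39), from 29, 5, and 2 counts in those samples. It became -0.57 without mocetinostat replicate 1. *PMF1* and *MAD1L1* share 23.3% and 43.2% of their exon bases with a same-strand gene. Of 15 tested genes of the constitutive centromere network 11 were lower and 3 were DRGs, from *CENPL* (-1.57) to *CENPU* (0.19, adjusted p = 0.21). Of 13 centriole and centrosome genes 9 were lower and 3 were DRGs, from *PCNT* (-1.33) to *NEDD1* (0.16, adjusted p = 0.303). Of the APC/C subunits, 9 of 14 were lower (64.3%, against 31.4% of all genes tested), with *CDC26* at 0.31 (adjusted p = 0.46). Only *ANAPC1* was a DRG (-1.16), a share of 7.14% and near the 8.18% of all genes tested. Among the enzymes and inhibitors of the APC/C, the inhibitor *FBXO5* was lower (-1.0, adjusted p = 1.49e-10), while the ubiquitin-conjugating enzymes *UBE2D1* (0.58, adjusted p = 0.0019) and *UBE2S* (0.34, adjusted p = 0.00314) were higher. With *PPP2R2A*, a regulatory subunit of PP2A (0.26, adjusted p = 0.0409), these were the 3 pathway genes that were higher. *PPP2R2A* overlapped between conditions and did not pass with DESeq2 (0.22, adjusted p = 0.22) or when any of DMSO replicates 1 and 3 and mocetinostat replicates 1 and 3 was left out (adjusted p from 0.0583 to 0.33). *UBE2D1* did not pass without DMSO replicate 2 (0.40, adjusted p = 0.0531), and without the expression filter none of the 3 passed. In the Greatwall and PP2A list 6 of 9 were lower (66.7%) with no DRG, led by *PPP2R1B* (-0.92).

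Among the 11 genes of the DREAM and MuvB complex, which binds the CHR, 7 were lower and 3 were DRGs. These are 63.6% and 27.3%, against 31.4% and 8.18% of all genes tested. *LIN9*, a core MuvB subunit, was at 30.9, 28.5, and 23.6 CPM with DMSO and at 6.54, 9.92, and 7.46 CPM with mocetinostat, a log2 fold change of -1.88 (SE 0.23, adjusted p = 2.49e-11). The other DRGs were *E2F4*, the repressive E2F of the DREAM complex (-1.21), and its partner *TFDP1* (-1.09). The DNA-binding subunit *LIN54* was at 52.8 CPM with DMSO and 56.1 CPM with mocetinostat, a log2 fold change of 0.08 (adjusted p = 0.598). *LIN37* was the highest at 0.55 (adjusted p = 0.383), from a mean of 1.78 CPM with DMSO.

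Members with and without CHR letters in the promoter had close median log2 fold changes. The median was -1.01 over the 35 tested members with the letters and -1.04 over the 13 without. With the CHR within 50 bases of the start it was -1.11 (27 members) against -0.97 (21 members), and with CCAAT -1.08 (31 members) against -0.87 (17 members). These medians are descriptions over genes and were not tested. Members without the letters may hold a CHR spelled otherwise or lying outside the window. The groups therefore do not separate genes with and without a CHR. In the other genes of the pathway CHR letters were present in 35.3% and CCAAT in 52% of 102 promoters, lower shares than in the members in both cases.

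The sources used here do not say whether counting used strand, and some members share exon bases with a gene on the opposite strand. The share was 33.7% for *NCAPG*, 24.7% for *PKMYT1*, 19.0% for *SMC4*, 15.9% for *FOXM1*, 11.6% for *PLK1*, 9.24% for *CCNA2*, and 8.80% for *CDC25C*. For *PLK1* the opposite gene had 0 counts in all samples. How far reads from overlapping genes entered the other values was not tested.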

How the data were processed

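RNA-Seq of TC28a2 cells was analyzed in 6 samples, 3 with DMSO and 3 with mocetinostat. The authors deposited whole raw counts of reads per gene, made, per the paper's methods and the labels, by trimming, removal of ribosomal RNA reads, alignment to GRCh38 with STAR 2.6.1d and counting with featureCounts 1.6.4. DESeq2 1.20.0 is also named in the submitters' processing notes. Settings for strand and for reads that map to several genes are not given in the sources used here.

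From these counts, TMM factors were computed with edgeR 4.0.16 (limma 3.58.1, R 4.3.3). filterByExpr (minimum count 10) left 13966 of 60623 genes, and the 2 conditions were compared by edgeR's quasi-likelihood test, with treatment as the only term. Every adjusted p in the text, unless another test is named, comes from this fit, with Benjamini-Hochberg adjustment over all genes tested. A DRG or URG has an adjusted p under 0.05 and a log2 fold change under -1 or over 1, the study's thresholds. CPM used the TMM factors and is given per sample or as a mean. Pairs of replicates differed by more than sampling noise (chi-square per degree of freedom from 1.96 to 7.19), so each sample counted once. Lengths, positions and overlaps came from GENCODE 44, to which 60295 of the genes matched by ID. Promoters came from RefSeq (GRCh38.p14), taking the start listed first for the 10 members with more than 1 start, and with any listed start 38 members had CHR letters. Pair ratios used scipy 1.17.1, and summaries and figures Python 3.11.15, pandas 2.3.3 and matplotlib 3.10.9. Simulated counts with known changes, as many up as down, were used to test the fits. They do not check how libraries are scaled when changes are unequal.

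The members, role groups and lists were chosen with earlier results of these data known. Named genes are *CDK1*, *CCNB1*, *CCNA2*, *PLK1*, *AURKB*, *FOXM1*, *TOP2A* and *MKI67*, and the lowest and highest log2 fold change in each role group and list. *UBE2S*, *E2F4*, *TFDP1*, and *LIN54* were named after their values were seen. Alternatives were DESeq2 1.42.0, RLE size factors, library size only, *GAPDH* scaling, no filter, glmTreat, 10 counts or more in each of the samples, a block for replicate number, thinning of all libraries to 1619344 counts, and leaving out single samples.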

Additional observations from a re-analysis of the deposited data

How the results depend on the processing

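Scaling to *GAPDH* counts gave 284 DRGs and 4425 URGs over all genes, against 1142 and 2827 with TMM, and 13 DRGs among the members with a median log2 fold change of -0.54. It gave 2 members and 20 other pathway genes higher at an adjusted p under 0.05, 38 other pathway genes lower, 6 of them DRGs, and 1 URG (*UBE2D1*, 1.12). The sign turned from negative to positive on this scale for 5 members, *ANLN* (0.04), *CDC25B* (0.24), *CDK1* (0.22), *FZR1* (0.06), and *WEE1* (0.23), and for 34 other pathway genes, 23 of which were lower with TMM, with *CEP55* (0.46) and *SMC3* (0.18) among the 34. With glmTreat, which tests against a log2 fold change of 1, 465 genes were DRGs, with 22 members and 14 other pathway genes lower and 0 other pathway genes higher. With at least 10 counts in every sample there were 704 DRGs and 1620 URGs, and the members' median was -1.0. Without the filter there were 2120 DRGs, 43 of them other pathway genes, with 0 of the latter higher at an adjusted p under 0.05, and the members' median was -1.33. Values near 0 turned without the filter for *MYBL2* (-0.19), *CENPU* (-0.06), and *NEDD1* (-0.09), and for *CEP55* with at least 10 counts (0.01) and in thinned libraries (0.05). With each sample left out, the members' median was between -1.14 and -1.09, *MYBL2* was between -0.02 and 0.12 and *MAD1L1* between -0.57 and 0.86. DRGs among the members numbered 38 with DESeq2, 33 with RLE factors or library size only, and 31 in thinned libraries. Of 697 results for single named genes under the alternatives, 639 kept their direction and their DRG or URG call, or its absence, 27 lost and 17 gained the call, and 14 turned. Of the 47 such results under *GAPDH* scaling, 29 were kept, 11 lost and 1 gained the call, and 6 turned. Leaving out glmTreat, an adjusted p under 0.05 was lost in 22 and gained in 7 of 650 such results, whatever the fold, among them *CDK1* (0.389) and *SKA1* (0.0663) in thinned libraries and *MYBL2* under *GAPDH* scaling (4.20e-07).

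With the replicate number as a block, 35 members were DRGs and 57 were lower. Samples with the same number did not deviate together (correlations from -0.0162 to 0.0116), and not every sample correlated best with its own number, so the numbers were not used as pairs. With 3 samples a condition and 1619344 counts in the smallest library, members with few reads such as *PRC1* and *NUSAP1* could not be measured precisely. Both also share exon bases with a same-strand gene, and whether this lowered their counts was not tested. P-values cover the spread between these samples of 1 cell line.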

Other observations

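Outside the members and the other pathway lists, 260 tested genes had CHR letters within 50 bases of the start of transcription. Of these, 13.8% were DRGs and 16.9% were URGs, and their log2 fold changes had a median of -0.25. Among the 9953 genes without the letters there, 7.28% were DRGs, 19.9% were URGs and the median was -0.01. With CHR letters anywhere in the window, 10.2% of 1056 genes were DRGs (median -0.13), against 7.13% of 9157 without. For CCAAT the order was the other way, with 7.08% DRGs among 3742 genes with the letters (median -0.01) and 7.66% among 6471 without (median -0.02). Kinesins and other mitotic genes outside the lists were not removed from these sets. These shares are a description over genes, chosen after the values were seen, and were not tested.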
